A study of Mus musculus with 8 samples.

Results

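H3K9ac peaks were examined at 2 loci, *Gfi1* and its paralog *Gfi1b*, each taken as the gene body plus the 60 kb upstream. Peaks of the 6 deposited lists were kept when they overlapped one of these regions by at least 1 bp. This left 61 of 220499 peaks, 37 at *Gfi1* and 24 at *Gfi1b*. Peaks of different libraries that overlapped were merged into 21 sites, 16 at *Gfi1* and 5 at *Gfi1b*. *Gfi1* (ENSMUSG00000029275.18) lies on the minus strand at chr5:107716657-107726036 (mm10), so its region ran to base 107786036. *Gfi1b* (ENSMUSG00000026815.14) lies on the minus strand at chr2:28609450-28621982, and its region ran to base 28681982. Distances are given from the most upstream annotated transcription start site (TSS), with negative values upstream.

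GFI1 and GFI1B are zinc finger repressors that share a SNAG domain, through which they bring LSD1, CoREST and histone deacetylases to their target genes. *Gfi1* is active in stem cells, granulocyte precursors and lymphoid precursors, and *Gfi1b* is active in erythroid cells and megakaryocytes. Both proteins bind sites with an AATC core, and both are known to repress their own promoter and that of the other. H3K9ac is an acetylation of histone H3 found at active promoters and enhancers.

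ChIP-seq with an H3K9ac antibody was done on bone marrow (BM) cells of C57BL/6 mice, all of which carried the *NUP98-HOXD13* transgene, a model of myelodysplastic syndrome. The methods of the study name frozen BM cells, whereas the title of its ChIP-seq figure names c-kit+ cells. The 3 genotypes were *GFI1-36S*, *GFI1-36N* and *GFI1-KD*, and each had 1 vehicle (DMSO) library and 1 library from curcumin treatment at 20 mg/kg given weekly by i.p. injection. *GFI1-36S* is the common human form of the protein, *GFI1-36N* has asparagine in place of serine, and *GFI1-KD* mice express GFI1 at a reduced level. In this model human GFI1 sequence was placed in the mouse *Gfi1* locus. The mouse genome used for mapping does not hold that sequence, and the labels do not say how many alleles were replaced, so values at *Gfi1* describe what remains of the mouse locus. The labels do not say how many mice gave each library or give their ages. With 1 library per group there is no replicate check, no test was run, and every interval below covers counting error only.

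The 6 lists held between 20354 and 49213 peaks, and total reads are not given in the sources used here. Levels are therefore given as a rank, the percent of the other peaks in the same list with a lower fold enrichment, with 0 for a gene without a promoter peak. A change of at least 10 rank points was counted as higher or lower. A promoter was 1 kb on each side of any TSS. The *GFI1-36S* curcumin library stood apart. It had the shortest list and a peak at 13 of 14 T-cell marker promoters, against 5 to 8 in the other libraries. It had a peak at 1 of 16 neutrophil, 1 of 12 stem and progenitor, 2 of 14 erythroid and megakaryocyte and 2 of 10 B-cell marker promoters. In the other 5 libraries these counts were 8 to 15, 10 to 12, 6 to 13 and 2 to 4. Its summed ranks were 896 for T cells against 239 to 414 elsewhere, 32.8 for neutrophils against 484 to 1100, and 32.8 for progenitors against 722 to 906. For erythroid cells and megakaryocytes they were 153 against 288 to 861, and for B cells 103 against 167 to 234. Of the defining markers, *Elane*, *Mpo*, *Kit* and *Cd34* had no promoter peak in it, whereas *Cd3e*, *Cd3g* and *Cd4* had one there and in no other library. In addition, the file names of the *GFI1-36S* pair give the treatments the other way round from the labels. The labels were followed, and values with the treatments exchanged are given for the curcumin-minus-vehicle rank changes of the *Gfi1* and *Gfi1b* promoters. Comparisons between genotypes, gene lists and site counts that use this pair were not recomputed with the exchange.

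Sequences are shown for the positions on which the results turn, written 5′ to 3′ on the strand of the gene, with the AATC core of the GFI1 and GFI1B site on either strand in capitals. The first *Gfi1* window, chr5:107726411-107726710 on the minus strand of GRCm38.p6, surrounds the summit that 3 libraries placed upstream of the TSS, in a noncoding exon of *A430072P03Rik*, an antisense transcript that starts within the *Gfi1* promoter. The second, chr5:107723193-107723492, surrounds the summits of both *GFI1-KD* libraries in the gene body, and holds the coding exon at bases 107723223 to 107723408. The third, chr5:107749302-107749601, is centred on the median summit of the one upstream site found in all 6 libraries, in an intron of *Evi5*.
Gfi1 upstream summit: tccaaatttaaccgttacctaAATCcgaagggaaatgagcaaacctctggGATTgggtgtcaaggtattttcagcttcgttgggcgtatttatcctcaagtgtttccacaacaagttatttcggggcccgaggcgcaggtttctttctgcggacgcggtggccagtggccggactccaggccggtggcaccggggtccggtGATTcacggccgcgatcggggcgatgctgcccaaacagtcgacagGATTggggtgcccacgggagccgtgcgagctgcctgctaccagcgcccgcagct
Gfi1 gene body summit: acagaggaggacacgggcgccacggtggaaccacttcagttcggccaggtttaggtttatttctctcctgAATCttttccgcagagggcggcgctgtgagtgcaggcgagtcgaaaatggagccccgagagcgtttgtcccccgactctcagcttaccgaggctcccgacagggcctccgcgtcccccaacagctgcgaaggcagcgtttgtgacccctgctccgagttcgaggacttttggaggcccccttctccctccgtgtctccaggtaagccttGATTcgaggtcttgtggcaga
Gfi1 −23 kb site: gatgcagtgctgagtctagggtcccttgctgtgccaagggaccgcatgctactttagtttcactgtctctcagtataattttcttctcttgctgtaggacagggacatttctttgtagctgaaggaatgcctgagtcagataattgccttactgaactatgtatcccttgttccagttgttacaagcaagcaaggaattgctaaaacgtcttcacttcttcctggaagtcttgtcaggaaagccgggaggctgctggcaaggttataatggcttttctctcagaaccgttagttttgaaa

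The core was present 4 times in the upstream-summit window, and 5.09% of 20189 windows of 300 bases at promoter sites held at least as many. The gene body window held it 2 times, and 30.1% of the same windows held at least as many. The −23 kb window held no AATC, whereas 79.1% of 44272 windows at sites away from a TSS held at least 1. It held 1 GATAA (present in 31.1% of those windows), 1 GGAAGT, an ETS motif (23.0%), and 1 TTGCNNAA, a C/EBP motif (12.4%). TGTGGT (RUNX), CAGCTG (E-box) and TGACAG (MEIS) were not found in it on either strand. A match is a description of the letters in the window and was not tested as a binding site.

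For *Gfi1b*, the window chr2:28620735-28621034 (minus strand, GRCm38.p6) lies in intron 1 and holds the strongest summits of *GFI1-36S* vehicle and of both *GFI1-36N* libraries. The *GFI1-KD* summits lay closer to the TSS, outside it. The 250 bases before the TSS, chr2:28621983-28622232, are from the RefSeq promoter table.
Gfi1b intron 1 summit: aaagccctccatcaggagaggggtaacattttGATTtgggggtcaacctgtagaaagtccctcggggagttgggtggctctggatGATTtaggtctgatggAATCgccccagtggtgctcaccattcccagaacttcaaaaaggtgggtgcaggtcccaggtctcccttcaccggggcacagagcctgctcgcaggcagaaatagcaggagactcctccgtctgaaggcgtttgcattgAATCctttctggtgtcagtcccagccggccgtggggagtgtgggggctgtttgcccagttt
Gfi1b before the start: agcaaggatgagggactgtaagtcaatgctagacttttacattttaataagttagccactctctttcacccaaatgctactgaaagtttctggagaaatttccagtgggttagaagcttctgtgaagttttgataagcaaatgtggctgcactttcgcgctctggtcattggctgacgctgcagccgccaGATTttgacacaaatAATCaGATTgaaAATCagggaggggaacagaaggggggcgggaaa

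The intron 1 window held the core 4 times, 2 of them within the longer form AAATCA, which 8.67% of the promoter windows contained. Before the TSS the core was also found 4 times, at −60, −45, −40 and −33 bp, and 7.04% of 32817 windows of 250 bases before a RefSeq start held at least as many. It lay there beside 1 AAATCA at −34 bp, which overlaps the last core, and 1 GATAA at −119 bp.

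The *Gfi1* promoter was acetylated in all 6 libraries, in a broad domain of middle height. In *GFI1-36S* its rank was 76.6 under vehicle and 86.2 under curcumin. In *GFI1-36N* the ranks were 75.1 and 84.8, and in *GFI1-KD* 78.1 and 74.0. The promoter was thus above the middle of every list, but so were most promoters. Among protein-coding promoters with a peak, it exceeded 21.6% in the *GFI1-36S* vehicle library and 68.7% in the curcumin library. The same share was 21.7% and 36.1% in *GFI1-36N*, while *GFI1-KD* had 27.2% and 29.8%. Only in the *GFI1-36S* curcumin library did *Gfi1* stand above the median promoter. The peak was 4488 and 4555 bp wide in *GFI1-36S* and 3038 and 4773 bp in *GFI1-36N*, while *GFI1-KD* had 4575 and 2817 bp, in the order vehicle, curcumin. These widths exceeded 96.0% to 99.8% of the peaks in each list.

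**Figure D1:**
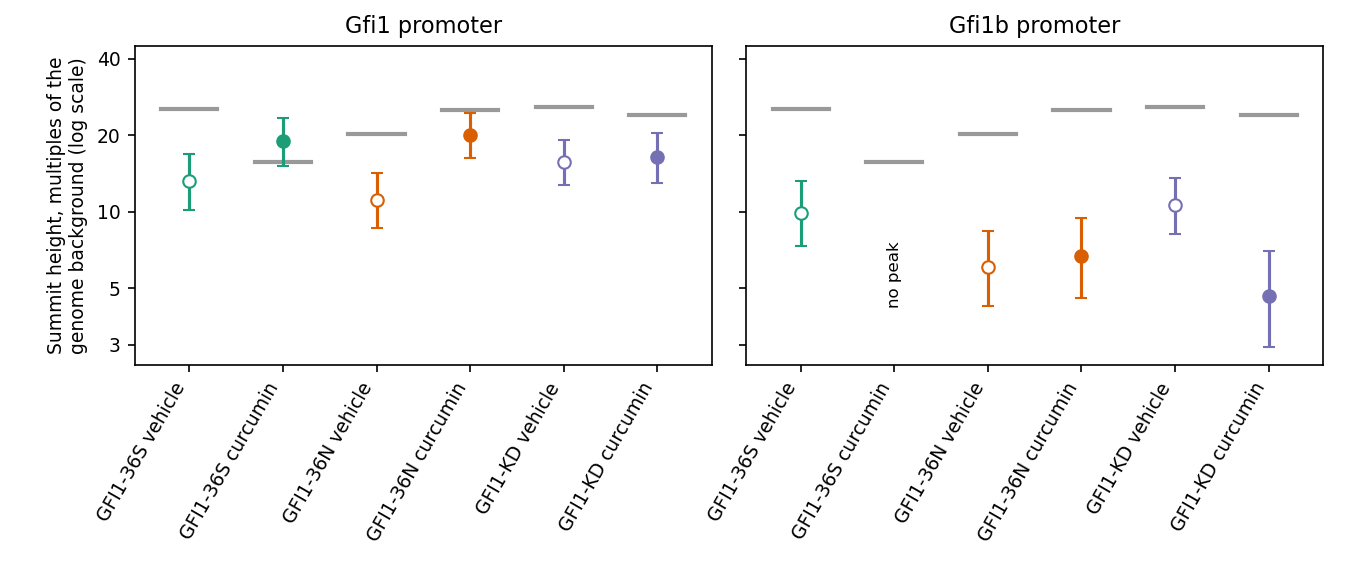
Summit height of the strongest promoter peak of Gfi1 (left) and Gfi1b (right) in each library, in multiples of the genome background of that library, on a log axis. Open circles are vehicle, filled circles curcumin, bars exact 95% Poisson intervals of the summit fragments, and grey lines the median of all protein-coding promoters with a peak. Gfi1 ran from 11.2 to 20.1, and Gfi1b from 4.65 to 10.6 with no peak in the GFI1-36S curcumin library.

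The number of fragments at the summit was recovered from the fold enrichment and p-value of each peak, and was divided by the genome background of the library to give a height. The *Gfi1* summit held 64 (vehicle) and 87 (curcumin) fragments in *GFI1-36S* and 66 and 96 in *GFI1-36N*, while *GFI1-KD* had 96 and 81. Heights were 13.2 (95% interval 10.2 to 16.9) and 18.9 (15.1 to 23.3) times background in *GFI1-36S*. They were 11.2 (8.63 to 14.2) and 20.1 (16.3 to 24.5) in *GFI1-36N*, while *GFI1-KD* had 15.7 (12.7 to 19.1) and 16.4 (13.004 to 20.4). From lowest to highest the order was *GFI1-36N* vehicle, *GFI1-36S* vehicle, *GFI1-KD* vehicle, *GFI1-KD* curcumin, *GFI1-36S* curcumin and *GFI1-36N* curcumin. Each neighbouring pair in this order had overlapping intervals, whereas the lowest and the highest did not.

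The curcumin and vehicle libraries were compared at this promoter within each genotype. In *GFI1-36N* the file names carry unlike codes, +ki for vehicle and kiki for curcumin, which the labels do not explain. Treatment and whatever the codes stand for cannot be told apart in any comparison of that pair. With curcumin, the *Gfi1* promoter stood 9.59 rank points higher in *GFI1-36S*, 9.63 points higher in *GFI1-36N* and changed by −4.10 points in *GFI1-KD*. None of these reached 10 points. Over all promoters in the *GFI1-36S* pair, 3.35% were higher and 57.9% lower by at least 10 points, with a median change of −12.99. In the *GFI1-36N* pair 14.1% were higher and 3.61% lower (median 2.61), and in the *GFI1-KD* pair 1.94% were higher and 23.2% lower (median −4.17). The *Gfi1* change exceeded that of 96.5% of promoters in *GFI1-36S*, 85.4% in *GFI1-36N* and 50.4% in *GFI1-KD*. In *GFI1-KD* the promoter thus moved with the median promoter.

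By the ratio of summit heights, too, *GFI1-KD* was the lowest of the 3 genotypes. The ratio of curcumin to vehicle was 1.43 (1.02 to 2.003) in *GFI1-36S*, where the median promoter with a peak in both libraries had 0.585. Ranks and heights are those of the strongest summit, wherever in the domain it lay. In *GFI1-36S* it lay at −549 bp under vehicle and at 2355 bp under curcumin, so unlike positions are compared there. The curcumin to vehicle ratio was 1.80 (1.303 to 2.503) in *GFI1-36N* against a median of 1.25, whose value lies below this interval. In *GFI1-KD* it was 1.046 (0.768 to 1.42) against 0.886. The rank changes depended on which peaks were ranked. Ranked only among the promoter peaks of each list, *Gfi1* changed by 34.7 points in *GFI1-36S*, 15.5 in *GFI1-36N* and 1.41 in *GFI1-KD*. The sign of the *GFI1-KD* change thus depended on the ranking. With the *GFI1-36S* treatments exchanged, the *Gfi1* change in that genotype was −9.59. Marker promoters moved in the same pairs. Of 14 T-cell markers, 10 were higher and 1 lower with curcumin in *GFI1-36S*, 3 higher and 2 lower in *GFI1-36N*, and none higher and 3 lower in *GFI1-KD*. Of 16 neutrophil markers, none was higher and 14 lower in *GFI1-36S*, 7 were higher and 2 lower in *GFI1-36N*, and none was higher and 10 lower in *GFI1-KD*. Their part in the *Gfi1* result was not tested.

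**Figure D2:**
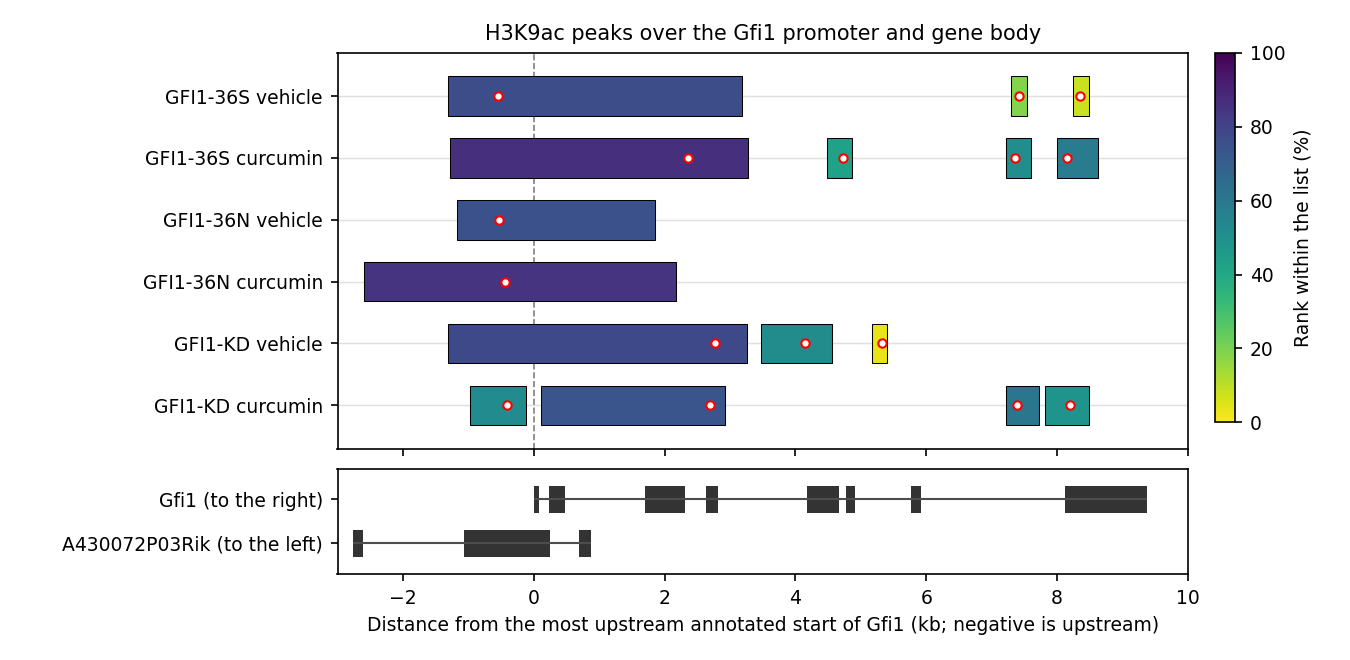
Peaks over the Gfi1 promoter and gene body in each library, by distance from the most upstream TSS in kb, coloured by rank within the list, with each summit as a white circle. Exons are boxes in the lower track. The strongest summit lay near −0.5 kb in 3 libraries and between 2.36 and 2.77 kb in the other 3. On the gene body side, the GFI1-36N peaks ended closest to the TSS.

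The libraries differed in where within the domain the summit lay. The summit was upstream of the TSS, at −549 bp, in *GFI1-36S* vehicle, at −524 bp in *GFI1-36N* vehicle and at −441 bp in *GFI1-36N* curcumin. In *GFI1-36S* curcumin it was in the gene body at 2355 bp, in *GFI1-KD* vehicle at 2767 bp and in *GFI1-KD* curcumin at 2694 bp. In the last library the domain was split into 2 peaks, chr5:107723113-107725929 with rank 74.0 and chr5:107726153-107727018 with rank 52.2 and its summit at −415 bp. Hence both *GFI1-36N* libraries had the upstream summit and both *GFI1-KD* libraries the gene body summit, while the *GFI1-36S* libraries had 1 of each. With the promoter peak required to have its summit inside the promoter, *GFI1-KD* vehicle had none, and the *GFI1-KD* change became 52.2. This value rests on a narrow margin. *Gfi1* has an internal TSS at base 107724343. The *GFI1-KD* gene body summits, at bases 107723269 and 107723342, lay just outside 1 kb of it. That of *GFI1-36S* curcumin, at base 107723681, lay inside.

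Acetylation of the *Gfi1* gene body was shortest in the *GFI1-36N* libraries. In *GFI1-36N*, peaks covered 19.8% (vehicle) and 23.2% (curcumin) of the gene. They covered 39.2% and 49.9% in *GFI1-36S*, and 48.7% and 42.7% in *GFI1-KD*. Of the 1467 coding bases annotated for mouse *Gfi1*, peaks covered 10.2% and 11.997% in *GFI1-36N*, against 38.0% and 64.8% in *GFI1-36S* and 60.4% and 46.0% in *GFI1-KD*. In *GFI1-36N* these were bases of the alternative first coding exon, bases 107725561 to 107725710, which was covered in full in all 6 libraries, plus part of the next in the curcumin library. The coding exon at bases 107723223 to 107723408 was covered in full in the 4 *GFI1-36S* and *GFI1-KD* libraries and not at all in the 2 *GFI1-36N* libraries. The file names carry the codes +ki and kiki for the vehicle and curcumin libraries of *GFI1-36N*, +ki for both of *GFI1-36S* and kdkd for both of *GFI1-KD*, which the labels do not explain. Whether the missing coverage follows the genotype, the number of mouse alleles left or the single library cannot be told apart.

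Inside the gene, 4 sites lay apart from the promoter domain. Those with median summits at 7.38 and 8.20 kb, in the last intron and at the last coding exon, were each found in the same 3 libraries. At 7.38 kb the ranks were 18.4 in *GFI1-36S* vehicle, 50.9 in *GFI1-36S* curcumin and 60.6 in *GFI1-KD* curcumin. At 8.20 kb they were 8.09, 58.7 and 48.3 in the same order. A site at 4.44 kb was found in *GFI1-36S* curcumin (rank 42.3) and *GFI1-KD* vehicle (51.6), and a site at 5.32 kb in *GFI1-KD* vehicle alone (3.76). The *GFI1-36N* libraries had none of these 4 sites.

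**Figure D3:**
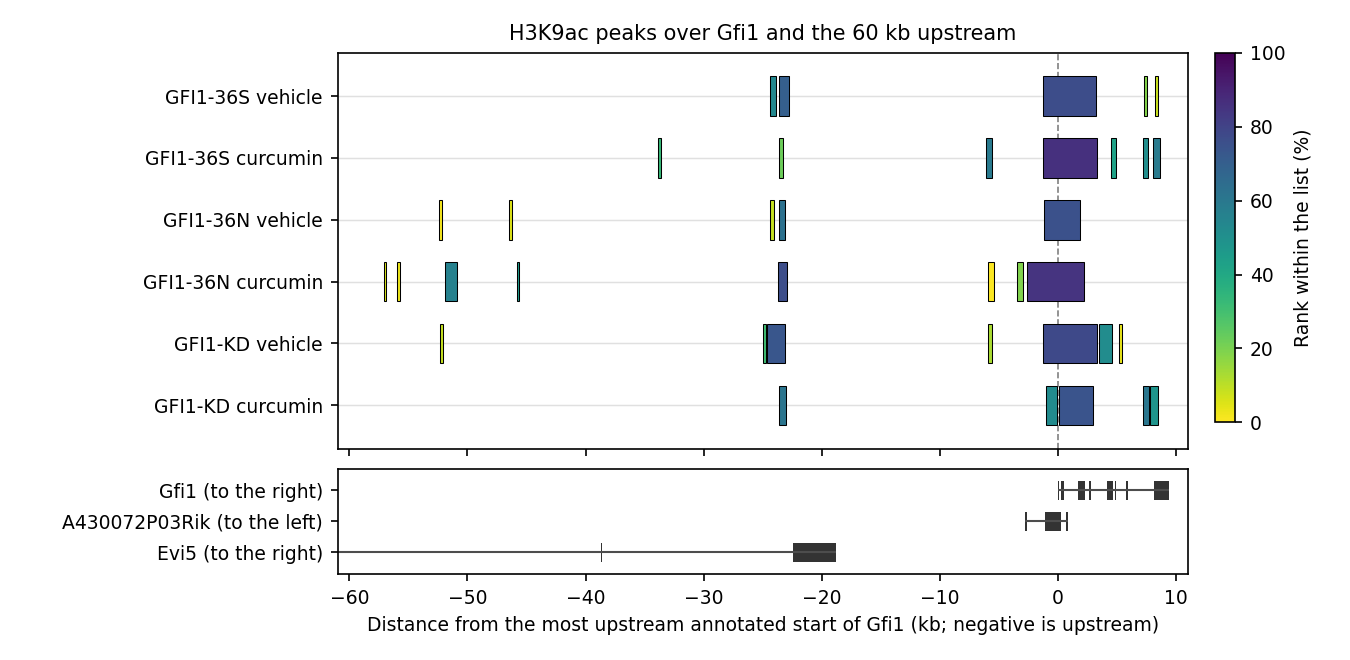
Peaks over Gfi1 and its 60 kb upstream in each library, by distance from the most upstream TSS in kb, coloured by rank within the list. Apart from the promoter domain, only the site near −23.4 kb was found in all 6 libraries, and the sites beyond −40 kb came from the GFI1-36N libraries and GFI1-KD vehicle.

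Upstream of *Gfi1*, 11 sites lay away from any TSS, 8 of them in a single library. With those in the gene body this made 15 sites away from a TSS, more than at 94.9% of the 12903 protein-coding genes with a promoter peak, whose median was 3. Of the 11, 9 lay in introns of *Evi5*, a neighbouring gene that encodes a GTPase-activating protein and is transcribed in the same direction. Single-library sites were unevenly spread. *GFI1-36N* curcumin, the longest list, had 5 upstream sites of its own, and without that library the *Gfi1* region held 11 sites. Leaving out any other library left 15 or 16.

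The −23.4 kb site, chr5:107748788-107750647 in an intron of *Evi5*, was the one upstream site shared by all libraries. Its ranks in *GFI1-36S* were 70.1 under vehicle and 22.3 under curcumin. They were 62.8 and 76.5 in *GFI1-36N*, while *GFI1-KD* had 73.4 and 61.3. The 3 vehicle libraries and the *GFI1-36N* and *GFI1-KD* curcumin libraries had ranks of 61.3 to 76.5, and *GFI1-36S* curcumin lay far below them. The summit held 45 and 21 fragments in *GFI1-36S* and 40 and 53 in *GFI1-36N*, while *GFI1-KD* had 71 and 47. It was lower with curcumin by at least 10 points in *GFI1-36S*, as were 72.2% of all sites away from a TSS in that pair, and in *GFI1-KD*, as were 55% there. It was higher in *GFI1-36N*, as were 45.9% of such sites, whereas 19% were lower. In *GFI1-36S*, 9.93% of such sites were higher, and in *GFI1-KD* 14.4%. These shares cover every site with a peak in either library of the pair, with rank 0 where none was called. The −23.4 kb site had a peak in both libraries of each pair. The height ratio of curcumin to vehicle was 0.490 (0.277 to 0.840) in *GFI1-36S*, 1.64 (1.07 to 2.54) in *GFI1-36N* and 0.820 (0.555 to 1.20) in *GFI1-KD*, so the last interval included no change. In *GFI1-36S* the strongest promoter summit and this site therefore moved in opposite directions by height ratio, with the promoter summits compared at unlike positions. With the treatments of that pair exchanged, both directions turn. The part of the T-cell and neutrophil marker promoters, which moved in the 3 pairs as given for the promoter, was not tested.

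**Figure D4:**
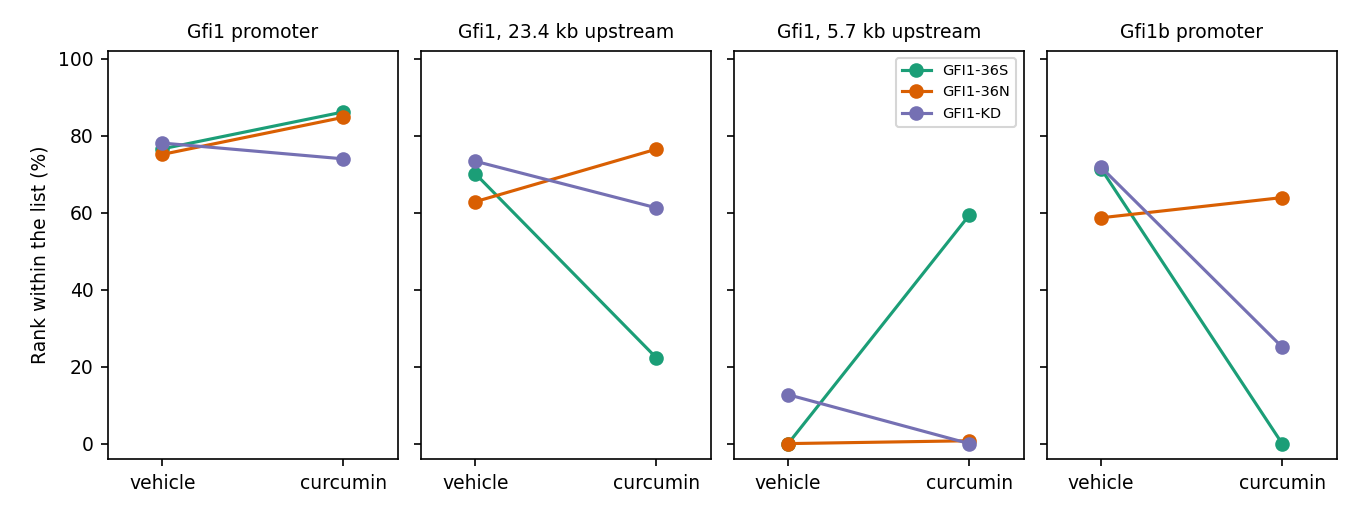
Rank within the list, in percent with 0 for no peak, with vehicle and with curcumin for 4 positions, with 1 line per genotype. In GFI1-36S the Gfi1 promoter went from 76.6 to 86.2 while the −23.4 kb site went from 70.1 to 22.3 and the −5.7 kb site from no peak to 59.3.

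The next upstream site, chr5:107731468-107732160 at −5.697 kb, is intergenic and was found in 3 libraries. It had rank 59.3 and 46 summit fragments in *GFI1-36S* curcumin, and stood near the foot of the list in *GFI1-KD* vehicle (12.7) and *GFI1-36N* curcumin (0.742). In the *GFI1-36S* pair it was present with curcumin alone, as were 9.85% of the 37165 sites of that pair. A site at −33.7 kb, chr5:107759676-107759907, was also found only in *GFI1-36S* curcumin, at rank 32.8. Of the sites found only in *GFI1-36N* curcumin, those at −51.1 and −45.7 kb had ranks 56.5 and 45.8. The others, at −57.0, −55.8 and −3.13 kb, had ranks 5.88, 3.12 and 19.1. A site at −24.9 kb was found only in *GFI1-KD* vehicle (31.2), 1 at −46.3 kb only in *GFI1-36N* vehicle (5.11), and the site at −52.2 kb in *GFI1-36N* vehicle (1.77) and *GFI1-KD* vehicle (8.82).

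Counted by pair, the *Gfi1* region in *GFI1-36S* had 4 sites found under both treatments, 0 under vehicle only and 3 under curcumin only. Over all sites of that pair, 32.8% were in both libraries, 57.3% in vehicle alone and 9.85% in curcumin alone. In *GFI1-36N*, 2 *Gfi1* sites were shared, 2 came from vehicle only and 6 from curcumin only, against 54.5%, 13.7% and 31.8% of all sites. In *GFI1-KD*, 2 were shared, 5 came from vehicle only and 2 from curcumin only, against 54.5%, 36.3% and 9.22%. Shares of so few sites are given as counts and were not tested.

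At *Gfi1b*, acetylation lay from just upstream of the TSS to 5.79 kb into the gene, almost all of it in intron 1, and depended strongly on the library. Its promoter had rank 71.4 with vehicle and no peak with curcumin in *GFI1-36S*. The ranks were 58.7 and 63.9 in *GFI1-36N*, while *GFI1-KD* had 71.8 and 25.1. The 3 vehicle libraries and *GFI1-36N* curcumin had ranks of 58.7 to 71.8, and the other curcumin libraries lay below them. The promoter exceeded 15.5%, 9.80% and 17.6% of the promoters with a peak in the *GFI1-36S*, *GFI1-36N* and *GFI1-KD* vehicle libraries. With curcumin it exceeded 10.9% in *GFI1-36N* and 3.099% in *GFI1-KD*, so it was among the weaker acetylated promoters in the 5 libraries where it had a peak.

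The strongest *Gfi1b* summit held 48 fragments in *GFI1-36S* vehicle and 36 and 32 in *GFI1-36N*, while *GFI1-KD* had 65 and 23. Heights were 9.92 (7.32 to 13.2) in *GFI1-36S* vehicle and 6.08 (4.26 to 8.42) and 6.70 (4.58 to 9.45) in *GFI1-36N*, while *GFI1-KD* had 10.6 (8.18 to 13.51) and 4.65 (2.95 to 6.98). The order from the lowest was *GFI1-KD* curcumin, *GFI1-36N* vehicle, *GFI1-36N* curcumin, *GFI1-36S* vehicle and *GFI1-KD* vehicle, with overlapping intervals for each neighbouring pair. *GFI1-36S* curcumin had no peak and no height.

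**Figure D5:**
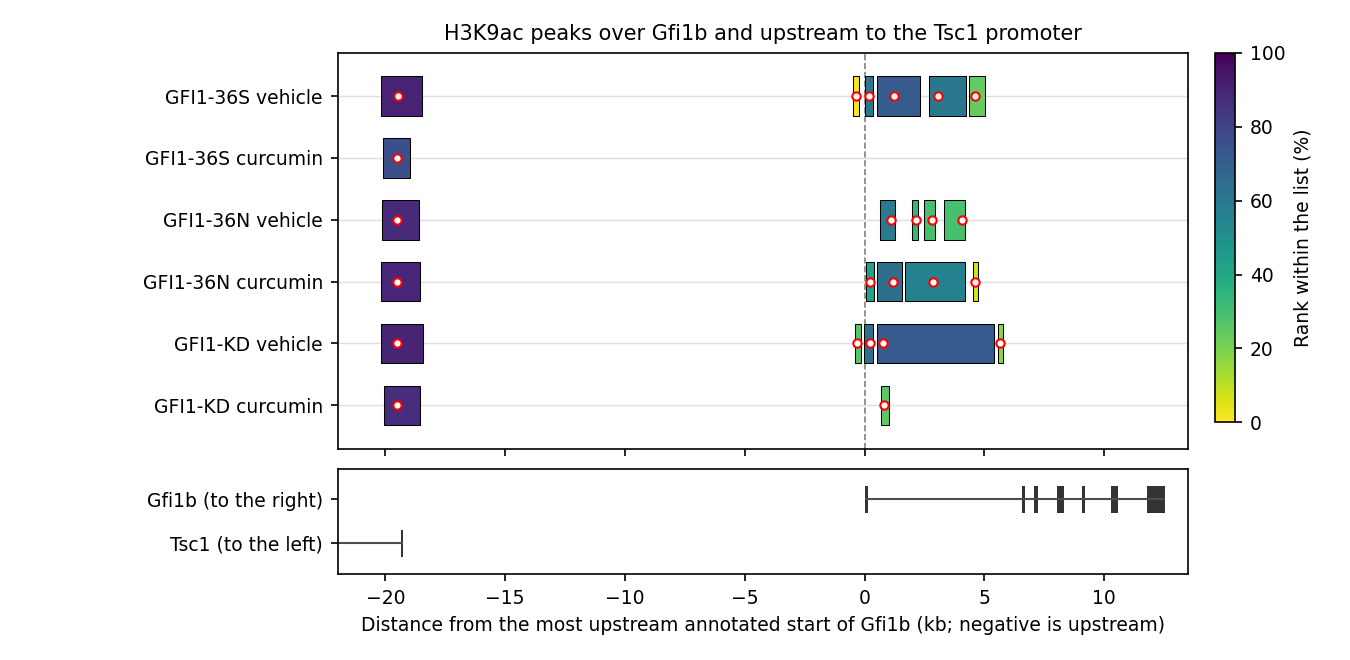
Peaks over Gfi1b and upstream to the Tsc1 promoter in each library, by distance from the most upstream Gfi1b TSS in kb, coloured by rank within the list, with each summit as a white circle and exons as boxes. The Tsc1 promoter peak near −19.5 kb was present in all 6 libraries, whereas the Gfi1b peaks were missing in GFI1-36S curcumin and reduced to 1 of 327 bp in GFI1-KD curcumin.

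With curcumin the *Gfi1b* promoter changed by −71.4 rank points in *GFI1-36S* and by −46.7 in *GFI1-KD*, and its change was 5.25 in *GFI1-36N*. The last value was −6.89 when each list was cut to its 20354 strongest peaks, the length of the shortest. At least 10 points lower were 57.9% of promoters in the *GFI1-36S* pair and 23.2% in the *GFI1-KD* pair. A larger decrease was seen at 6.10% of promoters in *GFI1-36S* and 4.02% in *GFI1-KD*. With no *Gfi1b* peak in *GFI1-36S* curcumin, the change in that pair was the whole of the vehicle rank. Only promoters with a higher vehicle rank could fall further, and of the 11894 promoters of that pair, 9932 had a peak with curcumin. In *GFI1-36N*, 69.1% of promoters had a smaller change than *Gfi1b*. The height ratio was 0.439 (0.260 to 0.715) in *GFI1-KD*, below the median promoter ratio of 0.886, and 1.10 (0.662 to 1.82) in *GFI1-36N*, an interval that held the median of 1.25. With the *GFI1-36S* treatments exchanged, the change there was 71.4. Marker promoters of erythroid cells and megakaryocytes, and of neutrophils, moved in the same pairs. In *GFI1-36S* the number of the 14 erythroid and megakaryocyte markers with a peak went from 12 under vehicle to 2 under curcumin, and their summed rank from 735 to 153. In *GFI1-36N* it went from 10 to 9 (summed rank 490 and 552), and in *GFI1-KD* from 13 to 6 (861 and 288). Of the 16 neutrophil markers, the number with a peak went from 14 to 1 in *GFI1-36S* (summed rank 990 and 32.8), was 13 in both *GFI1-36N* libraries (748 and 847), and went from 15 to 8 in *GFI1-KD* (1100 and 484). Other lists did not all move this way. Of the 12 stem and progenitor markers, those with a peak went from 11 to 1 in *GFI1-36S* (summed rank 906 and 32.8). They numbered 11 in both *GFI1-36N* libraries (848 and 858) and went from 10 to 12 in *GFI1-KD* (722 and 795). T-cell markers with a peak went from 8 to 13, from 7 to 8 and from 7 to 5 in the same order of genotypes. The part of these lists in the *Gfi1b* result was not tested. In a library made from many marrow cells, fewer cells of a type and less acetylation per cell cannot be told apart.

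The *Gfi1b* domain also differed in extent. In *GFI1-KD* vehicle a single peak of 4909 bp, chr2:28616574-28621482, covered most of intron 1 and was wider than 98.9% of the peaks in its list. In *GFI1-36S* vehicle the same stretch was broken into 3 peaks, in *GFI1-36N* vehicle into 4 and in *GFI1-36N* curcumin into 3. The *GFI1-KD* curcumin library had 1 peak of 327 bp, chr2:28620967-28621293. Peaks covered 34.5% of the gene in *GFI1-36S* vehicle and 17.9% and 32.1% in *GFI1-36N*, while *GFI1-KD* had 43.9% and 2.61%. The strongest summit lay at 1225 bp in *GFI1-36S* vehicle, at 1098 and 1174 bp in *GFI1-36N*, and at 771 and 796 bp in *GFI1-KD*. None of the 1089 coding bases was under a peak in any library.

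Around the *Gfi1b* TSS itself, a site at chr2:28621606-28622022 was found in *GFI1-36S* vehicle (rank 59.8), *GFI1-36N* curcumin (41.9) and *GFI1-KD* vehicle (63.2). A short site upstream of it, chr2:28622149-28622451, was found in *GFI1-36S* vehicle (1.36) and *GFI1-KD* vehicle (27.0). The AATC motifs shown above for the *Gfi1b* promoter lie between bases 28622012 and 28622042. In *GFI1-KD* vehicle the peak ended at base 28622022, so 2 of the 4 lay inside it, whereas the *GFI1-36S* vehicle and *GFI1-36N* curcumin peaks ended before them, at bases 28621965 and 28621929. A site at 5.67 kb, near the internal TSS at base 28615405, was found in *GFI1-KD* vehicle alone (17.9).

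Upstream of *Gfi1b* no site lay away from a TSS in any library. Beyond the *Gfi1b* promoter itself, the one upstream site was the promoter of *Tsc1*, which encodes hamartin, a negative regulator of mTORC1, at chr2:28640416-28642174 and −19.5 kb. It was present in all libraries, with ranks of 90.4 and 76.0 in *GFI1-36S* and 88.04 and 89.5 in *GFI1-36N*, while *GFI1-KD* had 89.98 and 87.1. In *GFI1-36S* the *Tsc1* peak held 137 fragments under vehicle and 67 under curcumin, a change of −14.4 rank points with a height ratio of 0.513 (0.377 to 0.693), beside a median promoter ratio of 0.585. Its height ratio in *GFI1-36N* was 1.21 (0.939 to 1.56), and in *GFI1-KD* 0.882 (0.7004 to 1.11), close to the median promoter ratio of 0.886. The 5 sites of the *Gfi1b* region compared with 16 at *Gfi1*, and 34.2% of genes with a promoter peak had fewer than 5. By pair, the *Gfi1b* region had 1 site in both *GFI1-36S* libraries and 3 with vehicle alone, 2 in both *GFI1-36N* libraries and 1 with curcumin alone, and 2 in both *GFI1-KD* libraries and 3 with vehicle alone. Over all sites, 32.8% were in both and 57.3% in vehicle alone in *GFI1-36S*, 54.5% were in both and 31.8% in curcumin alone in *GFI1-36N*, and 54.5% were in both and 36.3% in vehicle alone in *GFI1-KD*.

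Within a library both promoters were measured against the same background, so their summit fragments were compared. The number of mouse *Gfi1* alleles left is not given, so *Gfi1* fragments may come from fewer alleles than those of *Gfi1b*. The ratio of *Gfi1* to *Gfi1b* was 1.33 (0.903 to 1.98) in *GFI1-36S* vehicle, 1.83 (1.20 to 2.83) in *GFI1-36N* vehicle and 1.48 (1.07 to 2.06) in *GFI1-KD* vehicle. It was 3.00 (1.99 to 4.63) in *GFI1-36N* curcumin and 3.52 (2.19 to 5.87) in *GFI1-KD* curcumin. In the *GFI1-36S* vehicle library the interval included equal heights, and in the other 4 *Gfi1* was higher.

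Between genotypes, the vehicle libraries as labelled were close at *Gfi1*. In these pairs 7.57% of promoters (*GFI1-36N* against *GFI1-36S*), 10.1% (*GFI1-KD* against *GFI1-36S*) and 11% (*GFI1-KD* against *GFI1-36N*) were higher by at least 10 points, and 8.48%, 4.83% and 5.77% lower. Against *GFI1-36S*, the *Gfi1* promoter changed by −1.44 points in *GFI1-36N* and 1.503 in *GFI1-KD*, and the height ratios of 0.843 (0.589 to 1.21) and 1.18 (0.853 to 1.65) included no change. *GFI1-KD* exceeded *GFI1-36N* by 2.95 points, with a ratio of 1.40 (1.02 to 1.95) beside a median of 1.31 over all promoters. The summit compared lay in the gene body in *GFI1-KD* vehicle and upstream of the TSS in the other vehicle libraries. At *Gfi1b*, *GFI1-36N* vehicle was lower than *GFI1-36S* vehicle by at least 10 points (−12.7, as were 8.48% of promoters), with a ratio of 0.613 (0.387 to 0.964) beside a median of 0.817. *GFI1-KD* vehicle exceeded *GFI1-36N* vehicle by 13.1 points, as did 11% of promoters by at least 10, and differed from *GFI1-36S* vehicle by 0.409. With the *GFI1-36S* treatments exchanged, the library taken as its vehicle would have rank 86.2 at *Gfi1* and no peak at *Gfi1b*. Among the curcumin libraries, the *Gfi1* promoter was lower in *GFI1-KD* than in *GFI1-36S* (−12.2), where 6.85% of promoters were lower and 45.5% higher by at least 10 points. It was also lower than in *GFI1-36N* (−10.8), where 35.3% were lower and 2.01% higher. These came with height ratios of 0.867 (0.633 to 1.19) and 0.815 (0.599 to 1.11) that included no change. The *GFI1-36N* curcumin summit lay upstream of the TSS, and the *GFI1-36S* and *GFI1-KD* curcumin summits in the gene body. *GFI1-36N* differed from *GFI1-36S* at *Gfi1* by −1.40 points, where 63.3% of all promoters were higher and 1.9% lower by at least 10. *Gfi1b* in *GFI1-KD* curcumin was lower than in *GFI1-36N* curcumin (−38.8), with a ratio of 0.694 (0.388 to 1.22).

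The promoters whose ranks over the 6 libraries lay closest were found by root mean square difference among 12894 protein-coding genes. For *Gfi1* these were *Ddx18*, an RNA helicase (2.51 points), *Kdelc2* (2.78), *Dpysl2*, a regulator of the cytoskeleton (3.03), *Plcg1*, a phospholipase C of receptor signalling (3.05), and *1700025G04Rik* (3.11). For *Gfi1b* they were *Lrrc72* (2.92), *1700019D03Rik* (3.35), *Olfml2b* (3.73), *Ache*, which encodes acetylcholinesterase (3.77), and *Cd177*, a surface protein of neutrophils (3.83). Because they were chosen by these same ranks, the 5 genes closest to *Gfi1b* share its pattern. They had no peak in *GFI1-36S* curcumin, and ranks of 20.9 to 31.9 in *GFI1-KD* curcumin. These are the nearest of many genes over 6 points, and nothing was tested.

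Genes of the GFI1 network were described as 3 lists. For comparison, 3.35% of all promoters were higher and 57.9% lower by at least 10 points with curcumin in *GFI1-36S*. In the *GFI1-36N* pair 14.1% were higher and 3.61% lower, while the *GFI1-KD* pair had 1.94% higher and 23.2% lower. The corepressor list (LSD1, CoREST, histone deacetylases and others) had 12 genes, of which 11 had a promoter peak in every library. *Runx1t1*, whose product ETO is a partner in leukaemic fusion proteins, had none in any. With curcumin, none of these promoters was higher and 4 lower by at least 10 points in *GFI1-36S*, 1 was higher and none lower in *GFI1-36N*, and none was higher and 1 lower in *GFI1-KD*. Their median change was −6.85, 3.19 and −3.55, beside −12.99, 2.61 and −4.17 over all promoters. With each list cut to its 20354 strongest peaks, the direction turned in *GFI1-36S*, where 2 were higher and none lower.

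Of 16 genes for factors known to act at the *Gfi1* or *Gfi1b* loci, 15 or 16 had a promoter peak in 5 libraries, and 7 had one in *GFI1-36S* curcumin. Named after their values were seen, those missing there were *Gata1*, *Gata2*, *Tal1*, *Lyl1*, *Lmo2*, *Erg*, *Cebpa* and *Cebpe*, regulators of erythroid, stem and myeloid cells, and *Meis1*, which had none in *GFI1-36S* vehicle either. In *GFI1-36S*, 10 were lower and none higher with curcumin, beside 57.9% of all promoters lower, and the median change was −69.0 beside −12.99. In *GFI1-36N*, 4 were higher and 1 lower (median 0.0621 beside 2.61), and in *GFI1-KD* none was higher and 5 lower (−2.79 beside −4.17), or 3 higher and 5 lower in the lists cut to equal length. *Gata1*, the main erythroid GATA factor, also named after its values were seen, had ranks of 69.0 and no peak in *GFI1-36S*, no peak and 31.8 in *GFI1-36N*, and 61.8 and no peak in *GFI1-KD*.

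The list of genes known to be repressed by GFI1 or GFI1B had 22 members, *Gfi1* and *Gfi1b* included. With curcumin 3 were higher and 14 lower in *GFI1-36S*, 1 higher and 2 lower in *GFI1-36N*, and 1 higher and 5 lower in *GFI1-KD*. The shares of all promoters lower were 57.9%, 3.61% and 23.2%. Medians were −29.2, 1.41 and −3.28, beside −12.99, 2.61 and −4.17 over all promoters. In the lists cut to equal length the *GFI1-KD* direction turned, with 7 higher and 3 lower. No member of the 3 lists moved by at least 10 points in the same direction in all 3 pairs. Apart from *Runx1t1*, every listed gene had a peak in at least 1 library.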

How the data were processed

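H3K9ac ChIP-seq of bone marrow cells was analysed from the peak lists that the authors deposited, 1 for each of 6 of the 8 labelled samples. The input and IgG samples were not analysed here. Per the labels and the methods of the study, the authors trimmed reads with Trim Galore, aligned them to mm10 with BWA, used SAMtools and Picard, and called peaks with MACS2. Versions are not given in the sources used here. Of the deposited columns, the fold enrichment over local background is a ratio, the p- and q-values are −log10 values, and the integer score was not used. Groups followed the labels, although the file names of the *GFI1-36S* pair give the treatments exchanged.

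Peaks were ranked within each list by fold enrichment. Genes and TSSs were from GENCODE M21 on GRCm38, and sequences were from GRCm38.p6 and the RefSeq promoter table, in which both genes matched. Summit fragments were recovered from the fold enrichment and the Poisson p-value with a tolerance of 0.02 on the −log10 scale. This succeeded for all 61 peaks and for 95.0% to 100.0% of promoter peaks per library. Exact 95% Poisson and conditional binomial intervals cover counting error only, since fragments are not independent molecules. No total depth is stated. The scripts were tested on simulated data, and Python 3.11.15, numpy 2.4.6, scipy 1.17.1, pandas 2.3.3 and matplotlib 3.10.9 were used.

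The members and the gene lists were chosen with earlier results of these data known. Named genes were both members, genes whose promoters their sites overlap, the 5 genes closest to each in rank over the 6 libraries (genes within 100 kb left out), and network genes that moved by at least 10 points the same way in all 3 pairs or had no peak. Motifs were searched on both strands. Alternatives changed the peak threshold, list length, ranking, promoter, window and merging.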

Additional observations from a re-analysis of the deposited data

Results flagged for a closer look

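By rank in the full lists, the change of the *Gfi1* promoter with curcumin differed in sign between genotypes. It was 9.59 rank points in *GFI1-36S* and 9.63 in *GFI1-36N*, against −4.10 in *GFI1-KD*. The *GFI1-KD* value was 2.93 in lists cut to equal length and 1.41 among promoter peaks, and the *GFI1-36S* value was −9.59 with the treatments exchanged. With 1 library per group, this difference was not tested.

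The change of the *Gfi1b* promoter was −71.4 rank points in *GFI1-36S* and −46.7 in *GFI1-KD*, against 5.25 in *GFI1-36N*. The *GFI1-36N* value was −6.89 in lists cut to equal length, and its height ratio of 1.10 (0.662 to 1.82) included no change. With the treatments exchanged, the *GFI1-36S* value was 71.4. That difference was not tested either.

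Peaks were also listed outside the regions described, between 15 and 25 kb downstream of the *Gfi1b* TSS, past the end of the gene. There were 4 in *GFI1-36S* vehicle, 3 in *GFI1-36N* vehicle, 4 in *GFI1-36N* curcumin and 5 in *GFI1-KD* vehicle. The *GFI1-36S* and *GFI1-KD* curcumin libraries listed 0 there. No control list was used here to set a background for them.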

How the results depend on the processing

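Changes in rank are given as curcumin minus vehicle in the order *GFI1-36S*, *GFI1-36N*, *GFI1-KD*. Among peaks with a −log10 q of at least 5 the *Gfi1* changes were 17.0, 10.8 and −0.461, and those of *Gfi1b* −58.4, 2.37 and −49.8. With each list cut to its 20354 strongest peaks they were 33.7, 11.5 and 2.93 for *Gfi1*, and −41.9, −6.89 and −45.6 for *Gfi1b*. Ranked among promoter peaks alone they were 34.7, 15.5 and 1.41, and −36.5, 3.97 and −26.1. Ranked by −log10 p, *Gfi1b* gave −70.8 in *GFI1-36S* and −51.2 in *GFI1-KD*. With the summit required to lie in the promoter, *Gfi1* in *GFI1-KD* gave 52.2, and *Gfi1b* gave −59.8 in *GFI1-36S* and 41.9 in *GFI1-36N*. Peaks with a summit more than 1 kb from any TSS, internal ones included, no longer counted there. Exchanging the *GFI1-36S* treatments gave −9.59 for *Gfi1* and reversed *Gfi1b* to 71.4. Of 38 alternatives to the rank changes, 13 left them within a tolerance, the summed half-widths of the 95% Wilson intervals of both ranks as shares of their lists. The cause of the other shifts was not tested.

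The *Gfi1* region held 10 sites under the stricter q and 7 in the cut lists, 9 within 30 kb upstream, and 9 with peaks within 500 bp merged. Leaving out 1 library in turn, a choice made after seeing the data, gave 11 to 16. The *Gfi1b* region held 3 and 3 sites under the first pair of settings, 9 with 100 kb upstream, 14 with 60 kb downstream added and 2 after merging within 500 bp, and 5 to 5 with 1 library left out. The following were also chosen after seeing the data. Sites in 1 library of a pair numbered 3 in *GFI1-36S* after that merging. In *GFI1-36N* they numbered 3, 0 and 3 under the stricter q, the cut lists and the merging, and in *GFI1-KD* 5, 5 and 3. In the cut lists, corepressor genes that moved by at least 10 points numbered 2, 2 and 2 in the 3 pairs. In *GFI1-36S* they turned from 0 higher and 4 lower to 2 higher and 0 lower. Locus factors numbered 8 in *GFI1-KD*, 3 higher and 5 lower in place of 0 and 5. Repressed genes numbered 10 in *GFI1-36N*, 3 higher and 7 lower in place of 1 and 2, and 10 in *GFI1-KD*, where 1 higher and 5 lower became 7 higher and 3 lower.

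No paired analysis was possible because each group has 1 library and no test was run. For the same reason, leaving out a replicate within a group was not run. Without total reads, a missing peak says only that none was called.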
